A study of Homo sapiens with 12 samples.

Results

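The genes described here are the receptors of the epidermal growth factor (EGF) receptor family, EGFR, ERBB2, ERBB3 and ERBB4, and 6 of the ligands that bind them, AREG, EREG, BTC, HBEGF, TGFA and NRG1. They were taken by symbol, 10 genes of the 63086 in the table of normalised counts, and all 10 had a mean of at least 10 over the 12 libraries, as 15987 genes did. The libraries were RNA-seq of MIA PaCa-2, an established human pancreatic carcinoma cell line, with 3 biological replicates of each of 4 lines grown to about 70% confluency in 10% serum. WT was not manipulated. CRISPR Control had been through editing and carried a silent point mutation in TIMP1 and no other intended change. TIMP1 KO 1 and TIMP1 KO 2 are knockout clones in which exon 4 of TIMP1, which encodes an inhibitor of metalloproteinases, was cut by CRISPR-Cas9. Each knockout is a single clone, so loss of TIMP1 and other differences between clones cannot be told apart. No line carried a treatment.

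The receptors are tyrosine kinases of the cell surface that pair with each other when a ligand binds. EGFR is bound by AREG, TGFA, EREG, BTC and HBEGF, ERBB4 by EREG, BTC, HBEGF and NRG1, and ERBB3 by NRG1, while ERBB2 has no known ligand and serves as a partner. The ligands are made as membrane proteins and are released by metalloproteinases of the ADAM family, and the receptors signal through the kinases MEK and ERK.

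In both clones the members furthest below WT were 3 ligands of chromosome 4, EREG, AREG and BTC, which are encoded over 429 kb. AREG and EREG were close to 0 in both knockout clones and well expressed in WT and CRISPR Control, whereas BTC was high in WT and low in the other 3 lines. HBEGF moved the other way in KO 2. The 250 bases before the start of these 4 genes, from the RefSeq table of GRCh38.p14, are shown because their transcripts start right after them. Capitals mark matches on either strand to any of 6 motifs. The cAMP response element, through which CREB proteins act, was searched as TGACGTCA. Its shorter core, which lies inside it, was searched as TGACG. The TATA box, which places the start of transcription in some promoters, was searched as TATAAA. The AP-1 site of FOS and JUN proteins was searched as TGANTCA. The GC box that SP1 binds was searched as GGGCGG. The core of ETS factors was searched as CCGGAAG. AREG is on the plus strand at chr4:74444886-74445135, EREG on the plus strand at chr4:74364895-74365144, BTC on the minus strand at chr4:74794524-74794773 and HBEGF on the minus strand at chr5:140346604-140346853.
AREG: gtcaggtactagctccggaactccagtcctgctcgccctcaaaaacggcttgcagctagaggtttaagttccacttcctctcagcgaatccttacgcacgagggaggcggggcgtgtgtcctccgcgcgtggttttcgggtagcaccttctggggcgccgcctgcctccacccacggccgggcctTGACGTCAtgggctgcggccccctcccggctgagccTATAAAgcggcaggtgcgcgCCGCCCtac
EREG: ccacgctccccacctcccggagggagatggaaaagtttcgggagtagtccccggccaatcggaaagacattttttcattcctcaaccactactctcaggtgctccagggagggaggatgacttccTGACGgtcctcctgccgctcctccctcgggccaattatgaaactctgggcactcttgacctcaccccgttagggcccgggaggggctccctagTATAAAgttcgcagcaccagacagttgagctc
BTC: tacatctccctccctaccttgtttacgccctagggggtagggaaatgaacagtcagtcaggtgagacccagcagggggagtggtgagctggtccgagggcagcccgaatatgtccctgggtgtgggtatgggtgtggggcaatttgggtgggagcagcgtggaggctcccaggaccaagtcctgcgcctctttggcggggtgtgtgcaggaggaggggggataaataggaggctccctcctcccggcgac
HBEGF: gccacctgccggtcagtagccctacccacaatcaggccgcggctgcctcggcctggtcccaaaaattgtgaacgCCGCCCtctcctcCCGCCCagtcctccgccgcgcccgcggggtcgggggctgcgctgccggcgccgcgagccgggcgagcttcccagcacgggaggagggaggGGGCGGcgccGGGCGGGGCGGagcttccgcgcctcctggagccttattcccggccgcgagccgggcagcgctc
The AREG stretch held a full cAMP response element at -65 to -58, counted back from the start, which is present in 1.65% of the 35116 stretches of this length in the table. Its shorter core occurred in 21.2% of them, and the EREG stretch held it once at -125 to -121. Both AREG and EREG held a TATA box, at -29 to -24 and -32 to -27, as 10.7% of all stretches did. HBEGF had 5 GC boxes, of which a pair shared a base, and AREG had 1, and 42.6% of stretches held at least 1. No letters of these 6 motifs were found in the BTC stretch, and none of the 4 stretches held the AP-1 site (6.57% of all) or the ETS core (8.52%). CpG dinucleotides numbered 33 in HBEGF, 23 in AREG, 11 in EREG and 8 in BTC, against a median of 11. These are matches of letters in the reference, and binding was not measured.

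The libraries held 26908701 to 36093563 reads in genes. Normalised counts are reads divided by a size factor, so that 1 read was worth 0.828 to 1.19 normalised counts. The 12 pairs of replicates of a line differed by more than counting noise (chi-square per gene from 4.61 to 29.7). The labels call the replicates biological without saying how the cultures were kept apart, so p-values measure the spread between these libraries. In bulk RNA, fewer cells of a kind and less RNA per cell cannot be told apart. TIMP1 itself read 3837, 3290 and 3532 in WT, 2285, 2826 and 2959 in CRISPR Control, 1562, 1624 and 1613 in KO 1 and 1136, 1192 and 1155 in KO 2. Both clones were below both other lines, and CRISPR Control was at 75.7% of WT (log2 fold change -0.41, limma adjusted p 0.000769). Reads from an edited transcript still count towards the gene. All 6 epithelial markers (EPCAM, CDH1, KRT7, KRT8, KRT18, KRT19) were expressed, and their summed level was 56587 to 72786 in CRISPR Control and 174305 to 223516 in the other lines. CDH1, the adhesion protein of epithelial cells, averaged 1189 in WT, 128 in KO 1, 84.9 in KO 2 and 1424 in CRISPR Control. In the same order EPCAM averaged 1890, 2036, 1299 and 1875, and KRT7 91.5, 121, 191 and 112. KRT8 averaged 129995, 135667, 96385 and 39963, KRT18 54161, 55794, 35097 and 16912, and KRT19 15707, 24591, 52497 and 4583. The 6 epithelial markers thus did not move together. The 4 mesenchymal markers summed to 54294 to 65673 in CRISPR Control and to 71310.5 to 96567 in the other lines. Most of this sum was VIM, which averaged 58625 in CRISPR Control and 70742 in WT, and ZEB1 averaged 954 and 1226. CDH2 and FN1 went the other way, with 1110 and 826 in CRISPR Control against 571 and 105 in WT. In KO 1 and KO 2, VIM averaged 93176 and 72716, ZEB1 1288 and 1258, CDH2 93.7 and 384, and FN1 51.2 and 90.6. The 4 mesenchymal markers thus did not move together either. Of the acinar and endothelial markers 0 of 3 each had a mean of at least 10, and of the leukocyte and fibroblast markers 1 of 3 each, CD14 and PDGFRB. These markers moved with the lines, and their part in the results below was not tested.

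EGFR (ENSG00000146648.21, plus strand of chr7:55019017-55211628), the receptor that names the family, had the highest level of the 10 genes per kb of exons, 932 normalised counts per kb in WT. It read 14601, 14503 and 15486 in WT, 13458, 13272 and 13284 in KO 1, 13357, 12883 and 11684 in KO 2, and 12287, 7819 and 9632 in CRISPR Control. WT was the highest line, and its libraries did not overlap with those of any other line. By limma, the log2 fold change of CRISPR Control against WT was -0.61 (SE 0.11, adjusted p 0.000134), and KO 1 and KO 2 were above CRISPR Control by 0.45 (adjusted p 0.00147) and 0.37 (adjusted p 0.00571). Without CRISPR Control replicate 2, the library with the lowest value, these became 0.29 and 0.21. The knockouts gave -0.16 (95% interval -0.39 to 0.07, adjusted p 0.293) and -0.24 (-0.47 to -0.01, adjusted p 0.0773) against WT, which did not pass. They passed when only the 6 libraries of the pair were fitted (adjusted p 0.0195 and 0.00604, with ranges over all alternatives of 0.0195 to 0.504 and 0.00604 to 0.338).

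ERBB2 (ENSG00000141736.14, plus strand of chr17:39687914-39730426), the partner receptor without a ligand, was highest in CRISPR Control, with 5422, 4944 and 6275 against 4085, 3879 and 4002 in WT, 4112, 3901 and 3947 in KO 1 and 3082, 3597 and 3523 in KO 2. CRISPR Control rose against WT by 0.47 (SE 0.08, limma adjusted p 0.000111). KO 1 gave -0.00087 against WT, with an interval from -0.17 to 0.17 (adjusted p 0.995). KO 2 lay below WT by -0.23 (adjusted p 0.0237) and below KO 1 by -0.23 (adjusted p 0.0337). The first of these ended without WT replicate 1 (adjusted p 0.0704), WT replicate 3 (0.0609) or KO 2 replicate 1 (0.128) and under equal library totals (0.148) and quantile normalization (0.172), in a range of 0.00973 to 0.172 over the alternatives. The second ended without any of the 3 KO 1 libraries (0.110, 0.0616 and 0.0711) or KO 2 replicate 1 (0.164) and, among other settings, under equal library totals (0.211), in a range of 0.0146 to 0.211. MIEN1 and PGAP3 overlap ERBB2 on the opposite strand, with means of 1536 and 603 normalised counts, and the strand setting of the counting is not given in the sources used here.

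ERBB3 (ENSG00000065361.17, plus strand of chr12:56076799-56103505), a receptor with little kinase activity of its own that binds NRG1, had 14.0 normalised counts per kb in WT, against 386 for ERBB2. It read 263, 190 and 247 in CRISPR Control, 187, 146 and 158 in WT, 131, 119 and 169 in KO 1 and 105, 109 and 116 in KO 2. Only neighbouring lines WT and KO 1 overlapped in that order. CRISPR Control was above WT by 0.50 (SE 0.16, limma adjusted p 0.0133) and KO 2 below WT by -0.56 (SE 0.16, adjusted p 0.00605), while KO 1 gave -0.24 against WT (interval -0.57 to 0.10). Without WT replicate 2 or CRISPR Control replicate 1 the first of these had an adjusted p of 0.0604 and 0.0581 (range over the alternatives 0.00369 to 0.0604).

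ERBB4 (ENSG00000178568.16, minus strand of chr2:211375717-212538841), the other receptor for neuregulins, was present in CRISPR Control, with 77.7, 79.5 and 59.3 normalised counts, and at a few reads elsewhere. WT had 2.26, 1.82 and 0.953, KO 1 had 1.08, 0 and 0.883, and KO 2 had 3.31, 5.26 and 8.07. In reads this is 211 over the 3 libraries of CRISPR Control, 5 in WT, 2 in KO 1 and 18 in KO 2. CRISPR Control was 43.98-fold above WT (counting interval 18.5 to 137), which limma put at 4.79 on the log2 scale (SE 0.49, adjusted p 1.67e-07). Intervals of read ratios are exact binomial ones at 95% and cover counting error only, since several reads can stem from 1 molecule by PCR. KO 2 was called above WT (1.26, adjusted p 0.0379), but that call ended without WT replicate 2 (0.0542), WT replicate 3 (0.114), KO 2 replicate 2 (0.0760) or KO 2 replicate 3 (0.148) and, among other settings, by DESeq2 (0.0511), in a range of 0.0263 to 0.148. ERBB4 passed the minimum mean only through CRISPR Control.

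EREG (ENSG00000124882.4, plus strand of chr4:74365145-74388749) encodes epiregulin, a ligand of EGFR and ERBB4. It read 197, 302.7 and 269 in WT, 721, 760 and 643 in CRISPR Control and 14.9, 7.01 and 6.05 in KO 2, and no read was found in any of the 3 libraries of KO 1. None of the lines overlapped. A count of 0 was taken to allow up to 3 reads over the 3 libraries, and the other line's reads were taken as counted. On these terms KO 1 was at least 255-fold lower than WT and at least 695-fold lower than CRISPR Control. Such limits leave out the counting error of the other line. KO 2 was at 0.0368 of the WT level by reads (counting interval 0.0250 to 0.0524), or -4.71 on the log2 scale (SE 0.28, limma adjusted p 8.88e-11). Against KO 1, EREG in KO 2 was higher by at least 9.41-fold on the same terms (limma adjusted p 3.43e-08). Its 32 reads in KO 2 ranged from 6 to 18 per library, a spread that this limit does not cover. CRISPR Control was above WT by 1.48 (SE 0.28, adjusted p 0.000219), so that the edited line without a knockout moved opposite to the clones.

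AREG (ENSG00000109321.11, plus strand of chr4:74445136-74455005) encodes amphiregulin, a ligand of EGFR. Its values were 91.7, 103 and 134 in WT and 73.4, 97.3 and 111 in CRISPR Control, which overlapped. They were 0, 0 and 0.883 in KO 1 and 2.49, 0.877 and 4.04 in KO 2, and the clones overlapped at these few reads. The read totals per line were 335, 268, 1 and 8. KO 1 was thus at 0.00307 of the WT level (counting interval 7.76e-05 to 0.0172) and KO 2 at 0.0217 (0.00929 to 0.0432), with limma log2 fold changes of -6.47 (SE 0.40, adjusted p 3.79e-10) and -5.09 (SE 0.40, adjusted p 4.31e-09). CRISPR Control gave -0.22 against WT (interval -1.07 to 0.62, adjusted p 0.669). AREG was the one member in the intersection, that is called against WT in both clones in the same direction and not called in CRISPR Control, a rule that took 10.2% of the tested genes. Against CRISPR Control the clones gave -6.24 and -4.87 (adjusted p 1.16e-10 and 3.74e-09). KO 2 was called above KO 1 (1.38, adjusted p 0.0111), but the ratio of 8 to 1 reads had a counting interval of 0.946 to 313, and the call ended by edgeR (0.0862), by DESeq2 (0.0835) and without KO 2 replicate 3 (0.0617), and most clearly under quantile normalization (0.625), in a range that began at 0.00238.

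BTC (ENSG00000174808.12, minus strand of chr4:74744759-74794523) encodes betacellulin, which binds EGFR and ERBB4. It read 57.7, 67.3 and 69.5 in WT, 9.11, 16.7 and 7.06 in KO 2, 5.18, 1.19 and 3.30 in CRISPR Control, and 0, 2.25 and 0 in KO 1. WT stood above all other libraries. Against WT the log2 fold changes were -5.47 in KO 1 (SE 0.54, limma adjusted p 2.11e-07), -2.54 in KO 2 (adjusted p 0.000590) and -4.08 in CRISPR Control (adjusted p 4.17e-06), so the low level was shared with the line that kept TIMP1. KO 1, with 2 reads, was at 0.0104 of WT (counting interval 0.00125 to 0.0381). KO 2 was above CRISPR Control (1.54, adjusted p 0.0168), a call that ended without CRISPR Control replicate 2 (0.0821) or KO 2 replicate 2 (0.0895) or under quantile normalization (0.0910), in a range that began at 0.00829. KO 1 was called below CRISPR Control (-1.39, adjusted p 0.0320), from 2 against 10 reads, and this ended, among other settings, by edgeR (0.0697), by DESeq2 (0.0702) and without CRISPR Control replicate 1 (0.130) or 3 (0.0713) or KO 1 replicate 1 (0.110) or 3 (0.112), in a range of 0.00423 to 0.244. Without WT the mean of BTC over the other lines was 4.97, so it passed the minimum through WT.

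HBEGF (ENSG00000113070.8, minus strand of chr5:140332843-140346603), the heparin-binding ligand of EGFR and ERBB4, was highest in KO 2. It read 357, 416 and 399.5 there, 208, 193 and 204 in CRISPR Control, 131, 146 and 148 in KO 1 and 134, 127 and 111 in WT. Only KO 1 and WT overlapped. KO 2 rose against WT by 1.65 (SE 0.12, limma adjusted p 1.81e-09) and against CRISPR Control by 0.95 (adjusted p 1.52e-06), and CRISPR Control against WT by 0.70 (adjusted p 9.5e-05). KO 1 gave 0.19 against WT (interval -0.06 to 0.45, adjusted p 0.238) and was below CRISPR Control by -0.51 (adjusted p 0.00137).

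TGFA (ENSG00000163235.16, minus strand of chr2:70447284-70554193) encodes transforming growth factor alpha, a ligand of EGFR. It was low throughout, with 54.4, 68.8 and 47.3 in CRISPR Control, 36.4, 37.7 and 35.3 in KO 2, 27.0, 24.8 and 25.6 in KO 1 and 15.8, 17.3 and 20.003 in WT, and none of the lines overlapped. Against WT it rose by 1.62 in CRISPR Control (SE 0.23, limma adjusted p 1.05e-05) and by 1.01 in KO 2 (adjusted p 0.00114), and gave 0.52 in KO 1 (interval 0.04 to 1.01, adjusted p 0.0862). KO 2 was below CRISPR Control by -0.61 (adjusted p 0.0261), which ended without CRISPR Control replicate 2 (0.116), KO 2 replicate 1 (0.0544) or KO 2 replicate 3 (0.0635) and under equal library totals (0.0654), in a range of 0.00238 to 0.116.

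NRG1 (ENSG00000157168.22, plus strand of chr8:31639222-32855666), neuregulin 1, the ligand of ERBB3 and ERBB4, had the highest level of the ligands per kb in WT, 95.1 normalised counts per kb. It read 2905, 2742 and 2526 in KO 2, 1993, 2041 and 2064 in WT, 1964, 1903 and 1879 in KO 1 and 1449, 1183 and 1315 in CRISPR Control. The lines did not overlap, although KO 1 and WT were near each other (-0.09, interval -0.25 to 0.08). NRG1 rose in KO 2 by 0.42 (SE 0.08, limma adjusted p 0.000202) and fell in CRISPR Control by 0.63 on the log2 scale (adjusted p 2.39e-06) against WT, and it was higher in KO 2 than in KO 1 by 0.51 (adjusted p 5.66e-05).

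The members were then counted by comparison, beside the share of all 15987 genes called. For the members these counts are a description. ERBB4 and BTC passed the minimum mean only through their highest line, with 2.63 and 4.97 over the others, and had to differ between lines. The counts include both. AREG and EREG, near 0 in the clones, averaged 32.2 and 88.5 without their highest line. In KO 1 against WT, 3 of 10 members were called by limma (35.5% of all genes). None rose (18.0%; 0 also by edgeR and DESeq2, and 1, TGFA, at an unadjusted p under 0.05), 3 fell (17.5%), and all 3 of them, AREG, EREG and BTC, had an absolute log2 fold change of at least 1 (8.21%). In KO 2 against WT, 9 of 10 were called (55.0%), with ERBB4, TGFA, HBEGF and NRG1 higher (27.1%), ERBB2, ERBB3, AREG, EREG and BTC lower (27.9%) and 6 past an absolute change of 1 (14.7%). EGFR was the exception. In CRISPR Control against WT 9 of 10 were also called (53.4%), 6 higher (27.2%) and 3 lower (26.3%), and 4 past 1 (14.7%), with AREG as the exception. The 3 comparisons share the WT libraries, so their counts are not independent. With equal library totals in place of the size factors, 59.9% of the genes called in KO 2 against WT were higher, against 49.3% as deposited, and for KO 2 against KO 1 65.5% against 47.4%.

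Against CRISPR Control all 10 members were called in KO 1 (63.0% of all genes), EGFR and NRG1 higher (31.7%) and 8 lower (31.3%), with 5 past an absolute change of 1 (21.2%). All 10 were called in KO 2 as well (67.7%), with EGFR, HBEGF, BTC and NRG1 higher (33.3%), 6 lower (34.4%) and 6 past 1 (24.5%). These comparisons share the CRISPR Control libraries. KO 2 differed from KO 1 in 7 members (38.2%), with ERBB4, AREG, HBEGF, EREG, BTC and NRG1 higher (18.1%), ERBB2 lower (20.1%) and 5 past 1 (8.25%). All 6 knockout libraries lay below all 6 other libraries for AREG and EREG, 2 of 10 members, as for 12.4% of tested genes. They lay above them for 0 members, and for 12.3% of tested genes.

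**Figure D1:**
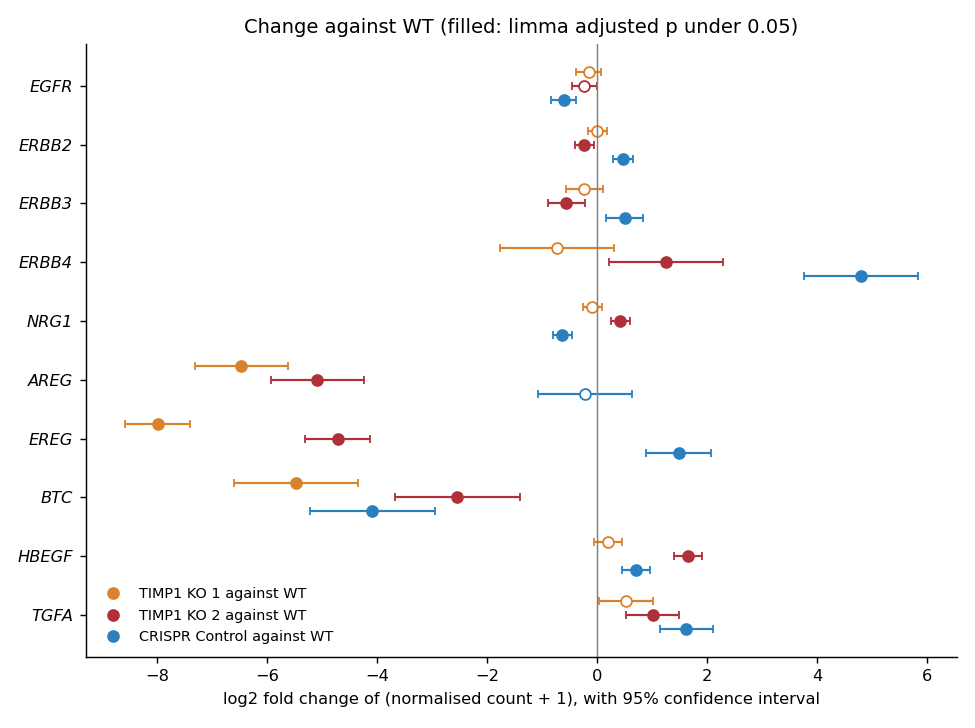
Log2 fold change against WT (x axis, of normalised count + 1) with its 95% confidence interval for each of the 10 genes (y axis) in KO 1, KO 2 and CRISPR Control, each a comparison of 3 with 3 libraries, filled where the limma adjusted p is under 0.05. AREG and EREG move far below WT in the clones while CRISPR Control is near or above it, and BTC is below WT in all 3 lines. The point of EREG in KO 1 rests on no reads, and its place depends on the added count of 1.

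To compare members with each other, normalised counts were divided by the length of the union of annotated exons (GENCODE v44, GRCh38), from 1642 bases for AREG to 21372 for NRG1. This understates a gene whose expressed transcripts use few of its exons. EGFR made up 69.9% of the receptor level per kb in WT, 67.8% in KO 1, 70.03% in KO 2 and 52.5% in CRISPR Control, and ERBB2 29.0%, 31.3%, 29.1% and 45.4%. ERBB3 and ERBB4 together were small, with ERBB3 between 0.829% and 1.68% and ERBB4 at most 0.468%. The summed receptor level was 1333 ± 37.5 per kb in WT, 1235 ± 17.1 in KO 1, 1132 ± 42.4 in KO 2 and 1185 ± 173 in CRISPR Control (mean ± SD, n = 3).

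The ligands changed their make-up more. In WT the ligand level per kb was divided among NRG1 (34.4%), AREG (24.2%), EREG (16.2%), HBEGF (15.03%), BTC (8.85%) and TGFA (1.30%). In CRISPR Control EREG was first, with 38.4%. In KO 1 NRG1 held 62.8% and HBEGF 33.2%, and AREG, EREG and BTC together came to 0.462 ± 0.429 per kb against 136 ± 21.9 in WT and 182 ± 9.96 in CRISPR Control. In KO 2 HBEGF (47.9%) and NRG1 (46.7%) were nearly equal, and AREG, EREG and BTC came to 7.26 ± 0.966 per kb. The sum of all 6 ligands was 276 ± 20.6 per kb in WT, 143 ± 1.44 in KO 1, 273 ± 9.16 in KO 2 and 323 ± 3.24 in CRISPR Control. The libraries of KO 1 thus summed lower than those of the other lines, and no test was run on these sums.

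**Figure D2:**
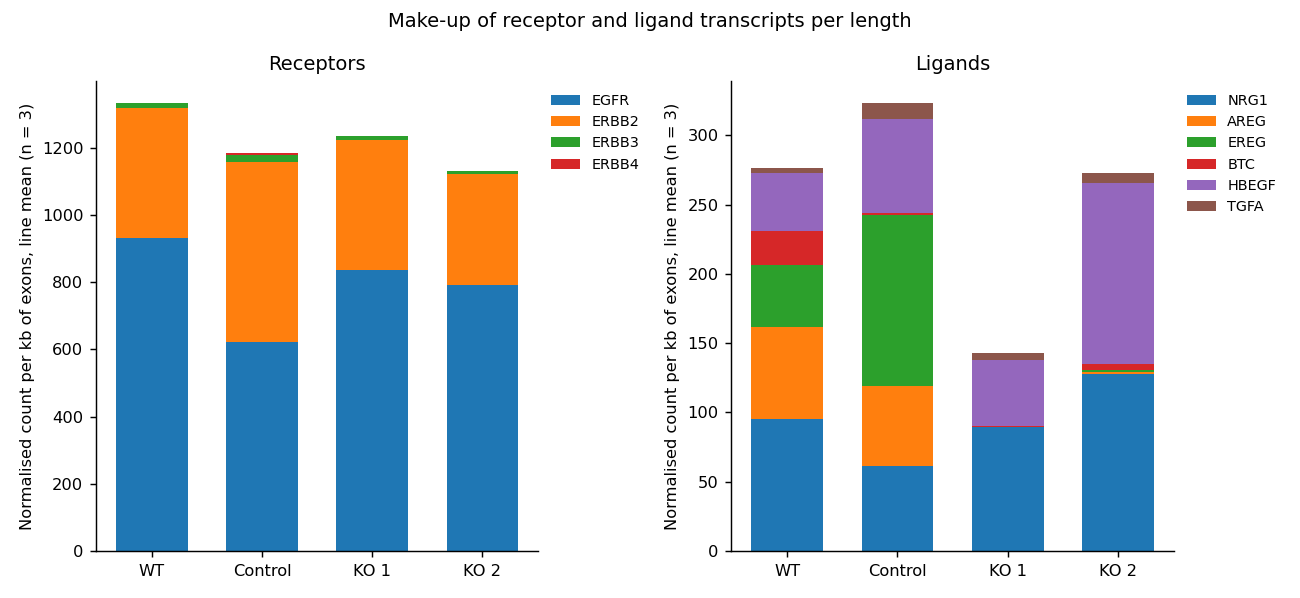
Stacked mean normalised counts per kb of exons (y axis, from 0, n = 3 libraries per line) of the 4 receptors (left) and the 6 ligands (right) in the 4 lines (x axis). EGFR and ERBB2 fill the receptor bars in every line, ERBB4 is too small to see, and AREG, EREG and BTC are missing or thin in the ligand bars of the clones.

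AREG, EREG and BTC share their place in the genome, so the genes around them were read too, a window chosen after the members' values were seen. It ran 500 kb beyond the stretch of 486 kb from EPGN, the gene of the ligand epigen, to BTC, and held 36 genes of the table, of which 8 were tested. In KO 1 against WT 6 of the 8 were lower and 1 higher (17.5% and 18.0% of all tested genes), in KO 2 also 6 and 1 (27.9% and 27.1%), and in CRISPR Control 5 and 1 (26.3% and 27.2%). The 3 members are among these 8. Besides the members these were the chemokine genes CXCL1, CXCL5 and CXCL6, and PARM1, with MTHFD2L not called in any. CXCL5 averaged 281 ± 91.4 in WT, 0.360 ± 0.624 in KO 1, 2.00 ± 1.80 in KO 2 and 13.4 ± 9.31 in CRISPR Control (SD, n = 3). It was lower than WT in all 3 lines (limma adjusted p 1.32e-08, 3.35e-08 and 6.39e-06 for KO 1, KO 2 and CRISPR Control). Like BTC, CXCL5 passed the minimum mean only through WT and had to differ between lines. The counts of the window include both. CXCL1 averaged 548 in WT and 204, 96.6 and 162 in CRISPR Control, KO 1 and KO 2, again called lower in each. CXCL6 went from 36.0 in WT to 11.1, 14.8 and 8.39 in the same order. Its call in KO 1 (adjusted p 0.0264) ended without WT replicate 1 (0.0966) or 2 (0.0636) or KO 1 replicate 2 (0.0941) or 3 (0.140), in a range of 0.00315 to 0.140.

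MTHFD2L, which codes for a mitochondrial folate enzyme and lies between the chemokines and EREG, was at 160 ± 18.9 in WT, 128 ± 4.02 in KO 1, 133 ± 13.0 in KO 2 and 160 ± 32.8 in CRISPR Control. Its log2 fold changes against WT were -0.31 in KO 1 (limma adjusted p 0.138) and -0.26 in KO 2 (adjusted p 0.173). PARM1, a membrane mucin beyond BTC, went the other way in the clones, with 43.4 ± 7.76 in WT, 156 ± 35.4 in KO 1, 1975 ± 92.0 in KO 2 and 5.61 ± 2.11 in CRISPR Control (limma adjusted p against WT 2.69e-06 for KO 1, 3.09e-13 for KO 2 and 4.19e-09 for CRISPR Control). EPGN was not tested, with means of 0.303 in WT, 5.43 in CRISPR Control and no reads in either clone. In each clone 6 of the 8 tested genes were thus called lower (17.5% of all tested genes in KO 1 and 27.9% in KO 2). In each, 1 was called higher (18.0% and 27.1%), and MTHFD2L was not called. The 6 were CXCL1, CXCL5 and CXCL6 and the members EREG, AREG and BTC, around which the window was chosen. A change of the region as a whole was not tested.

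For each member whose line means spanned at least 1 on the log2 scale, the 2 genes of most similar pattern over the 4 lines were sought among 11520 genes with a mean of at least 100, by the root mean square difference of centred log2 line means. With 4 lines many genes can match. EREG was most like PPARG (difference 0.52), which had 322, 1390, 0 and 6.21 normalised counts in WT, CRISPR Control and the clones KO 1 and KO 2, and PDE10A (0.63). AREG was most like DNER (0.45), with 370, 234, 6.15 and 14.6, and COL26A1 (0.54). The genes nearest to BTC were RAB27B (0.83) and TRIP6 (1.12), which is a poor match. ERBB4 was nearest to KITLG (0.15), the ligand of the receptor KIT, with 19.3, 546, 12.4 and 59.4, and DPYSL3 (0.34). CSRNP1 (0.08) was among the genes nearest to HBEGF, with 149.6, 213, 154 and 447. TGFA was nearest to SPINT1 (0.11) and CNTD2 (0.12), NRG1 to DNHD1 (0.03) and CSAD (0.04), and ERBB3 to AAGAB (0.01) and NAT8L (0.01). The span of EGFR was 0.61 and that of ERBB2 0.70.

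The rest of the pathway was described by 5 lists. Of 5 other EGF family ligands (EGF, EPGN, NRG2, NRG3 and NRG4) only NRG2 was tested. It had 474 ± 7.93 in WT, 424 ± 19.2 in KO 1, 520 ± 66.4 in KO 2 and 417 ± 37.2 in CRISPR Control (SD, n = 3), and was called in 0 of the 3 comparisons with WT by limma, edgeR or DESeq2, nor at an unadjusted p under 0.05. The other 4 averaged at most 5.43 in any line.

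Of 8 tested genes of ligand shedding, the ADAM proteases that release the ligands and the partners of ADAM17, 4 were higher in KO 1 against WT (18.0% of all tested genes), 5 in KO 2 (27.1%) and 4 in CRISPR Control (27.2%). None was lower in the clones by limma, edgeR or DESeq2, nor at an unadjusted p under 0.05, and 1 was lower in CRISPR Control. That 1 became 0 without WT replicate 1 or 3 or CRISPR Control replicate 2, and 2 without CRISPR Control replicate 3. The medians were 0.17, 0.25 and 0.23, beside 0.00, -0.01 and 0.01 for all tested genes. ADAM8, a membrane protease, had the largest called rise of the list in both clones. It had 61.7 ± 10.9 in WT, 365 ± 13.5 in KO 1, 608 ± 16.5 in KO 2 and 79.7 ± 9.02 in CRISPR Control, which is 2.56 (SE 0.14, limma adjusted p 3.87e-11) and 3.29 (adjusted p 5.5e-13) against WT. The least of the called changes were ADAM10 in KO 1 (0.23, adjusted p 0.0278) and ADAM17 in KO 2 (0.21, adjusted p 0.0349). ADAM17, the main releasing enzyme of AREG, EREG, HBEGF and TGFA, averaged 1491 in WT, 1607 in KO 1, 1728 in KO 2 and 2098 in CRISPR Control. The call of ADAM10 in KO 1 ended without WT replicate 1 (0.135) or any KO 1 library (0.0558, 0.113 and 0.0516), in a range of 0.00391 to 0.135. That of ADAM17 in KO 2 ended without WT replicate 2 (0.0625) or 3 (0.126) or KO 2 replicate 1 (0.142) or 3 (0.0770), in a range of 0.00385 to 0.142.

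All 21 genes of receptor restraint and feedback were tested, among them the receptor inhibitors ERRFI1 and LRIG1, the CBL ubiquitin ligases, and the sprouty, SPRED and DUSP brakes on ERK. Against WT, KO 1 had 5 higher and 6 lower (18.0% and 17.5% of all tested genes), KO 2 had 12 and 2 (27.1% and 27.9%), and CRISPR Control had 13 and 2 (27.2% and 26.3%), with medians of 0.12, 0.29 and 0.46. Without KO 1 replicate 2 the 5 became 3. DUSP4, a phosphatase of ERK, had the largest called rise in both clones, at 3.53 ± 1.70 in WT, 13.2 ± 5.20 in KO 1, 23.5 ± 14.5 in KO 2 and 26.2 ± 3.19 in CRISPR Control, and so was also high in the line without a knockout (limma adjusted p 0.00998, 0.000451 and 0.000113 for KO 1, KO 2 and CRISPR Control). Without KO 1 replicate 2 its adjusted p in KO 1 was 0.0585 (range 0.00529 to 0.0585). LRIG1, which promotes the breakdown of EGFR family receptors, had the largest called fall in both, at 60.8 ± 11.1 in WT, 27.9 ± 6.44 in KO 1, 11.3 ± 3.49 in KO 2 and 103 ± 30.7 in CRISPR Control, which is -1.10 (SE 0.27, adjusted p 0.00389) and -2.35 (adjusted p 7.32e-07) against WT.

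Among 28 adaptor and relay genes, KO 1 had 6 higher and 4 lower, near the shares of all tested genes (18.0% and 17.5%), KO 2 had 6 and 10 (27.1% and 27.9%), and CRISPR Control had 6 and 9 (27.2% and 26.3%), with medians of 0.01, -0.11 and 0.00. None of those in the clones reached an absolute change of 1, and 4 in CRISPR Control did. The 4 lower in KO 1 became 7 without CRISPR Control replicate 1 and 9 when only the lines compared were fitted. NCK2, an adaptor to the actin machinery, had the largest called fall in both clones, at 7354 ± 119 in WT, 4655 ± 189 in KO 1, 4018 ± 247 in KO 2 and 3251 ± 306 in CRISPR Control. GAB1, a docking protein of EGFR, had the largest called rise in KO 1, at 78.1 ± 4.91 in WT, 125 ± 10.6 in KO 1, 107 ± 6.53 in KO 2 and 188 ± 35.5 in CRISPR Control (0.67, SE 0.15, limma adjusted p 0.00220 in KO 1). PIK3R1, the regulatory subunit of PI3-kinase, had the largest called rise in KO 2, with 303.05 ± 14.9 in WT, 417 ± 19.4 in KO 1, 489 ± 25.4 in KO 2 and 158 ± 45.9 in CRISPR Control. It rose against WT in KO 2 (0.69, SE 0.16, limma adjusted p 0.00101) and fell in CRISPR Control (-0.98, adjusted p 3.46e-05). Its call in KO 1 (0.46, adjusted p 0.0268) ended without WT replicate 2 (0.0803) or 3 (0.0655) or KO 1 replicate 1 (0.0758) or 3 (0.0766), in a range of 0.000716 to 0.0803.

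Of 13 genes whose transcription follows ERK activity, 3 were higher and 4 lower in KO 1 (18.0% and 17.5% of all tested genes), and 5 and 5 in both KO 2 (27.1% and 27.9%) and CRISPR Control (27.2% and 26.3%), with medians of 0.07, -0.02 and 0.10. ETV1, an ETS transcription factor, had the largest called rise in both clones, with 194 ± 17.7 in WT, 375 ± 41.4 in KO 1, 1520 ± 191 in KO 2 and 94.9 ± 14.7 in CRISPR Control (limma adjusted p 1.64e-05 and 1.51e-12 against WT). EPHA4, a receptor of ephrins, had the largest called fall in both, with 271 ± 43.3 in WT, 2.58 ± 2.32 in KO 1, 26.7 ± 10.9 in KO 2 and 129 ± 28.3 in CRISPR Control, which is -6.56 (SE 0.46, adjusted p 1.83e-09) and -3.37 (adjusted p 4.75e-06). The list as a whole moved in both directions in each line.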

How the data were processed

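RNA of 12 libraries was sequenced in read pairs of 150 bases. The authors trimmed reads with Cutadapt, mapped them to GRCh38 with STAR, counted them per gene with featureCounts and scaled the libraries with DESeq2. The strand setting and annotation release are not given in the sources used here. The deposited signal is each library's reads over its size factor, called the normalised count. Every value above 0 returned whole reads within 0.01, which gave the depth. The table had 1 blank line and 4 columns of line means, which were left out.

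The members and gene lists were chosen with earlier results of these data known. The main test was limma 3.58.1 (R 4.3.3), applied to log2(normalised count + 1) for the 15987 genes with a mean of at least 10, with 4 line means fitted to all 12 libraries, eBayes with a trend, two-sided p-values and Benjamini-Hochberg adjustment over all tested genes at 0.05. Fold changes on this scale understate the change of low genes. The step was tested on simulated data. Alternatives were pseudocounts of 0.5 and 10, no minimum or 50, equal totals, quantile normalization, a replicate block, a fit of the 2 lines alone, edgeR 4.0.16 and DESeq2 1.42.0 on whole reads, an adjusted p of 0.01 and leaving out each library. Named genes were the members, TIMP1, the 2 genes most like each member, and from each list the highest and lowest called change in KO 1 and in KO 2 against WT. One of the most alike genes is not reported here. The tested genes near EREG were added after the members' values were seen. Of the 63086 gene identifiers 99.1% were found in GENCODE v44 without their version, and all 10 members with it. RefSeq promoter stretches were read for 8 of the 10 members, and entries on chromosome 8, where NRG1 lies, were left out.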

Additional observations from a re-analysis of the deposited data

Results flagged for a closer look

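The clones are both labelled as knockouts of TIMP1, and 7 of 10 members differed between them by limma, KO 2 against KO 1, as did 38.2% of all tested genes. The log2 fold change was 3.27 for EREG, 2.93 for BTC, 1.99 for ERBB4, 1.46 for HBEGF, 1.38 for AREG, 0.51 for NRG1 and -0.23 for ERBB2. EREG had 0 reads in KO 1 and 32 in KO 2, BTC 2 and 37, ERBB4 2 and 18, and AREG 1 and 8, so these differences lie between levels that are all low beside WT or CRISPR Control. The calls of AREG and ERBB2 held in 10 and 9 of 17 alternatives, and that of ERBB4 in 15 of 16. HBEGF and NRG1 differed at levels well above the minimum, with no overlap between the libraries of the clones.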

How the results depend on the processing

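The count of members called stayed within 1.5 times its value in each of the 6 pairs and in the intersection under every alternative. Among the alternative values of the members' log2 fold changes 933 kept their direction and their side of the threshold, 57 lost their call, 4 gained it and 8 changed direction. Those 8 had no call to begin with. For EGFR, KO 2 against KO 1 became 0.0232 under equal library totals and 0.0217 under quantile normalization. For ERBB2, KO 1 against WT became 0.0272 under quantile normalization and ran from -0.0234 to 0.0165 when a library was left out. For ERBB4, KO 1 against WT became 0.33 under quantile normalization, from 2 and 5 reads. The cause was not tested. A pseudocount of 10 shrank the changes of low members, for AREG in KO 1 against WT to -3.52 and for EREG in KO 2 against WT to -3.79, which follows from adding 10 to small values. A minimum mean of 50 left ERBB4, TGFA and BTC untested. Equal totals moved the median of all genes to 0.11 for KO 2 against CRISPR Control (log2 scale), against -0.01 with the size factors.

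Deviations of libraries with the same number correlated between -0.13 and 0.16, over 0.1 in 2 of 18 pairs, so the numbers were not taken to pair samples. The replicate block left 9, 3 and 1 members called in CRISPR Control against WT, in KO 1 against WT and in the intersection, and in KO 2 against WT 8 in place of 9, since ERBB4 had an adjusted p of 0.0517 (1.26).

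The same alternatives were added, after the data were seen, for TIMP1, the named list genes and the genes near EREG. For MTHFD2L, CRISPR Control against WT became 0.00065 by DESeq2 and ran from -0.12 to 0.17 when a library was left out. EPHA4 in CRISPR Control, not called by limma (-1.08, adjusted p 0.0533), was called by edgeR (0.000202), in a range of 3.41e-06 to 0.165. Depth limited the comparison of AREG between the clones, which rests on 8 and 1 reads.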
